A study of Mus musculus with 4 samples.

Results

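Oxidative phosphorylation is carried out by 5 protein complexes of the inner mitochondrial membrane, and the genes described here are those encoding their nuclear subunits. Members were the spots whose only gene symbol in the platform annotation fits a fixed set of names: Nduf followed by a, b, c, s or v for complex I, Sdha to Sdhd for complex II, Uqcr and Cyc1 for complex III, Cox4 to Cox8 for complex IV, and Atp5 for complex V, with Cycs, cytochrome c, on its own. These names matched 79 of 14386 genes, on 160 of 32064 spots: 37 genes of complex I, 3 of complex II, 9 of complex III, 15 of complex IV, 14 of complex V, and Cycs. The match used names alone and no measured value, though the set of names was chosen with earlier results of these data known. By name, complex I includes 6 Ndufaf genes, whose products help to assemble the complex and are not part of it, and Ndufa4, whose product is now assigned to complex IV. Cox7a2l, counted with complex IV, encodes a factor of respiratory supercomplexes.

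Total RNA came from embryoid bodies of the mouse embryonic stem cell line CGR8 after 3 or 10 days, grown by the hanging drop method. Each was hybridised on a 2-channel spotted array together with RNA labelled as undifferentiated day 0 embryoid bodies of CGR8, with the older RNA in channel 1 and day 0 in channel 2 throughout. No genetic change or added agent is named for any group, and the labels do not say how many cultures were pooled. There are 2 arrays for day 3 and 2 for day 10, the second of each pair a technical replicate, so each day rests on 1 RNA pair, no test was possible, and every SD below measures technical error alone. Whether the technical replicate repeats the labelling, the hybridisation or the scan is not stated, so neither is the kind of error that these SDs cover. Values are log2 ratios centred on the median of each array, with the spots of a gene averaged, and a gene value is the mean ± SD of 2 technical arrays. The sources used here name neither dye nor numerator, so "positive side" and "negative side" name the deposited sign and do not say which day was higher.

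As background, complexes I and II pass electrons from NADH and succinate to ubiquinone, complex III passes them on to cytochrome c, and complex IV hands them to oxygen. The proton gradient built by complexes I, III and IV drives ATP synthesis by complex V. Pluripotent stem cells are known to rely heavily on glycolysis, and mitochondria mature as embryoid bodies form cardiac and other lineages. Several complex IV subunits exist as a ubiquitous form and a form restricted to muscle, lung or testis.

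A gene was called where its value was 1 or more (2-fold) from 0 on both arrays of a day, with 1 sign. At day 3, 1 of 75 measured members was called on the positive side and 2 on the negative side, where 1.77% and 1.03% of all 13707 measured genes were called. Cox7a2 was the positive one, and Cox6b1 and Atp5a1 were the negative ones. At day 10, 0 of 67 measured members were called on the positive side and 1, Ndufa13, on the negative side, against 2.15% and 1.39% of 13199 genes. Between the days, 0 of 64 members were called on the positive side and 1, Ndufc1, on the negative side, against 1.82% and 1.72% of 12654 genes. These shares are near those of all genes, and in numbers this small they do not set the oxidative phosphorylation genes apart.

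Other limits gave the same reading. At 1.5-fold on each array, day 3 had 4 members on the positive side (Cox7a2, Ndufa6, Ndufaf3 and Uqcrc2) and 3 on the negative side (Atp5a1, Cox6b1 and Ndufb11), against 6.33% and 5.33% of all genes. Day 10 had 2 (Cox7a2l and Cox8b) and 6, among them Atp5c1, Cox4i1 and Ndufs7, against 7.42% and 6.53%, and the difference between days had 2 and 4, against 5.01% and 5.28%. With 2-fold asked of the mean alone, day 3 had 5 and 3, against 4.67% and 3.30%, day 10 had 1 and 3, against 6.11% and 4.54%, and the difference 5 and 5, against 8.32% and 7.89%. With 2-fold asked of each spot reading, Cox7a2 and Atp5a1 stayed at day 3, against 1.09% and 0.336%. No member did so at day 10 (1.37% and 0.545%) or between the days (0.593% and 0.632%). Single arrays show how much the agreement of a pair removes. The first day 3 array alone had 6 members beyond 2-fold on each side (8.23% and 6.13% of genes) and the second 6 and 7 (7.24% and 5.51%). The day 10 arrays had 4 and 6 (10.8% and 9.59%) and 4 and 7 (9.15% and 7.02%).

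**Figure D1:**
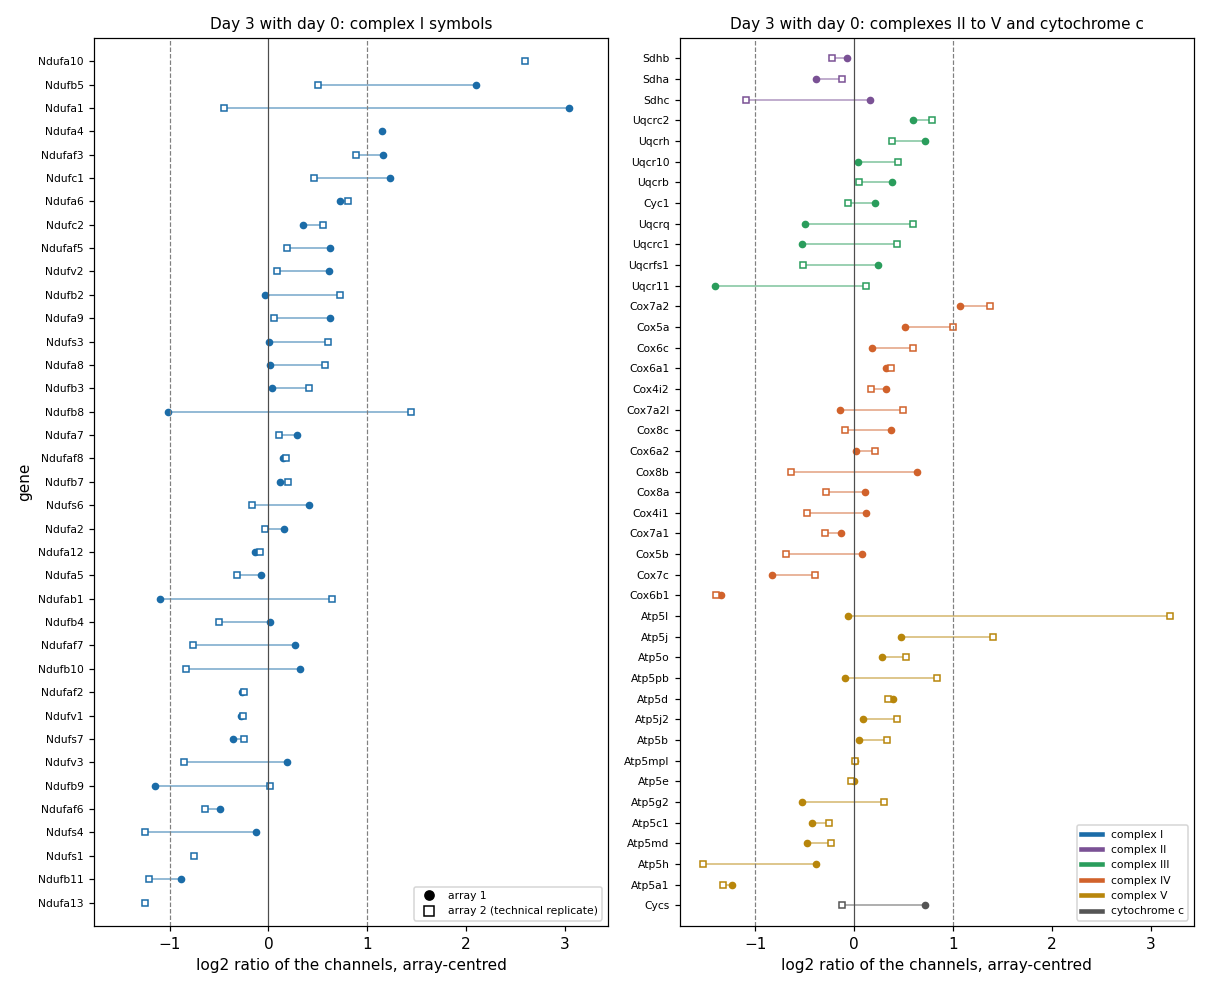
Log2 ratio of each member on the day 3 arrays (filled circle, array 1; open square, array 2), complex I on the left and the other complexes on the right, with dashed lines at 2-fold. Cox7a2 lies beyond the line on the positive side on both arrays and Cox6b1 and Atp5a1 on the negative side, while Ndufa1, Atp5l and Ndufb8 have long bars because their arrays differ.

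Most members had a value on every array. All 4 arrays measured 64 members, 3 arrays measured 13, and 2 arrays measured Cox8c and Ndufa4. The arrays carried a value for between 37471 and 41386 of 46128 spots. Across the members, the day 3 arrays correlated at r = 0.198 (75 genes) and the day 10 arrays at r = 0.286 (67 genes), against 0.271 and 0.215 over all genes. These are descriptions across genes that share RNA, labelling and slide. As a check of orientation, r between a day 3 and a day 10 array was 0.115 to 0.161 over all genes and -0.0335 to 0.114 over members. Such pairs share the day 0 label, and these r say nothing of the days. The 8 stem cell markers looked up (Pou5f1, Nanog, Sox2, Zfp42, Dppa5a, Esrrb, Klf4 and Tdgf1) had spots. The 7 measured at day 3 were negative on both arrays, where 31.8% of all genes were. The 6 measured at day 10 had means on the negative side, as had 6698 of 13199 genes. Of these 6, 3 were negative on both day 10 arrays, where 30.8% of all genes were. Dppa5a, Esrrb and Nanog were positive on the first day 10 array, at 0.41, 0.29 and 0.15.

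The technical error of 1 array was about as large as the spread of the 2-array means across members. A 2-array mean has a smaller error than 1 array. The SD of 1 array, pooled over members, was 0.63 at day 3 and 0.64 at day 10. The 2-array means had an SD across members of 0.55 and 0.59. The SD of an array fell with brightness, estimated from whole numbers that return each log2 value as a ratio. In the 24 members among the brightest 25% of genes, the pooled SD at day 3 was 0.21 and r between the arrays 0.794, and in the 9 among the dimmest 25% the SD was 1.06 and r 0.167. The 42 members between them had an SD of 0.67 and an r of 0.0751, so r did not follow brightness over the 3 classes. At day 10 the brightest 23 members had an SD of 0.47 and r of 0.460, the middle 34 had 0.64 and 0.145, and the dimmest 10 had 0.93 and 0.0691. Duplicate spots of a member on 1 array differed by a median of 0.25 on each day 3 array and 0.40 and 0.54 on the day 10 arrays.

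**Figure D2:**
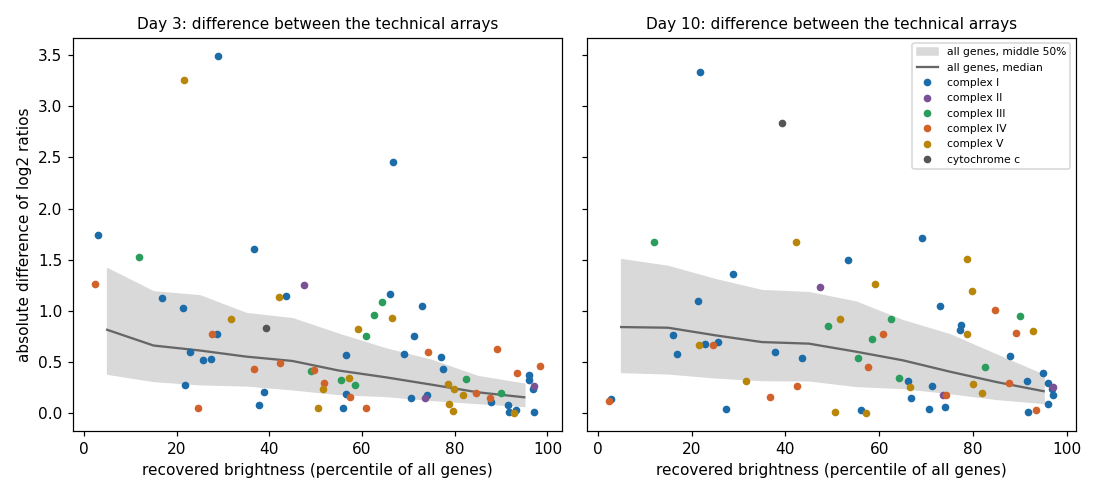
Absolute difference between the technical arrays for each member (points, coloured by complex) against its recovered brightness, as a percentile of all genes, at day 3 (left) and day 10 (right). The grey line and band are the median and middle 50% of all genes; points fall with brightness, and Ndufa1 at day 3 and Ndufaf3 at day 10 lie highest.

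Complex IV, cytochrome c oxidase, held the called members farthest apart at day 3. Cox7a2, the ubiquitous form of a small membrane subunit, had 1.08 and 1.37 on the day 3 arrays, or 1.22 ± 0.21. Its duplicate spots stood at 1.14 and 1.01 on array 1 and at 1.45 and 1.29 on array 2, so each of the 4 readings was beyond 2-fold. On the first day 10 array its spots were at -0.54 and -3.98, and the second gave no value, so Cox7a2 has no day 10 mean. Cox7a2 lies on chromosome 9 from 79755241 to 79771422 (GRCm38.p6).

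Cox6b1, a subunit facing the intermembrane space, had -1.34 and -1.40 at day 3, or -1.37 ± 0.04, the lowest mean of the 75 measured members. The close match of the arrays hides a split between spots. One spot read -1.44 and -2.23 and the other -1.25 and -0.57, so 1 of 4 readings was inside 2-fold. At day 10 Cox6b1 had -0.02 and -0.69, both negative and inside the limit. The gene lies on chromosome 7 from 30616971 to 30626114 and had a brightness percentile of 24.7.

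The region before the start of transcription is shown for Cox6b1 and Cox7a2, which lay on opposite sides at day 3, and for Cox6a1, the ubiquitous form of another complex IV subunit, because its window holds each of the motifs marked. Each is the 250 bases before the annotated start, 5′ to 3′ on the gene's strand, from RefSeq on GRCm38.p6, and all 3 genes are on the minus strand. Capitals mark 3 motifs searched on both strands: that of NRF1, a regulator of respiratory genes (GCGC, any 1 base, then TGCGC), that of ETS factors such as GABP (CCGGAAG), and CCAAT.
Cox6b1, chr7:30626115-30626364: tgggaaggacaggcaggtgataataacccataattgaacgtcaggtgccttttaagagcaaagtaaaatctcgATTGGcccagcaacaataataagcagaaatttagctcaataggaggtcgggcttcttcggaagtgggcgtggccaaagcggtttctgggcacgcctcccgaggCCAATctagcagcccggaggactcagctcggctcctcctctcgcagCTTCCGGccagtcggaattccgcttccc
Cox7a2, chr9:79759854-79760103: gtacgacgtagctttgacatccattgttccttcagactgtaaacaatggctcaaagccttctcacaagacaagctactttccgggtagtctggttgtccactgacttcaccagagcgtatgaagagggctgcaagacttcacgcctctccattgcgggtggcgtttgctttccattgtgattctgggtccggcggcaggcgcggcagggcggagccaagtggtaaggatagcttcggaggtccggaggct
Cox6a1, chr5:115348959-115349208: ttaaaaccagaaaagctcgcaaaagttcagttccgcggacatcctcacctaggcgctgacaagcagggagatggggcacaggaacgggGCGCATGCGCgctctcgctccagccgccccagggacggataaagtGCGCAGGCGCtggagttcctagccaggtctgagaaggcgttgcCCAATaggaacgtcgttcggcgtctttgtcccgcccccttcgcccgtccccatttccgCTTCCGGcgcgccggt
Counted to the first base of each match as printed, Cox6b1 has CCAAT at 177 (other strand) and 74 bases before the start and an ETS motif at 28 (other strand). The Cox7a2 window holds none of the 3 and lies inside the span given for the gene. Cox6a1 has NRF1 motifs at 162 and 117 (other strand) bases before the start, CCAAT at 74 and an ETS motif at 16 (other strand).

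Motif content is a feature that the choice of members did not use. RefSeq windows of 300 bases (250 before to 50 after the start) were found for 63 of the 79 members. The NRF1 motif was present for 13 of the 63 (20.6%), against 7.17% of 17491 protein-coding genes and 5.19% of all 27025 genes with a window. CCGGAAG was present for 14 (22.2%), against 12.9% and 9.93%. AAGATGGCG, a motif of the factor YY1, was present for 8 (12.7%), against 2.14% and 1.64%, and CCAAT for 28 (44.4%), against 42.3% and 41.1%. Complex V had the NRF1 motif in 4 of 12 windows and complex IV in 1 of 10. AAGATGGCG was in 6 of 33 windows of complex I (18.2%) and 2 of 12 of complex V (16.7%). The median log2 ratio at day 3 was -0.04 over the 13 measured members with the NRF1 motif and 0.18 over the 47 without it. At day 10 these medians were -0.26 (13 members) and -0.05 (41 members). For the ETS motif the day 3 medians were 0.07 (14 members) and 0.19 (46), and the day 10 medians -0.26 (13) and -0.04 (41). With AAGATGGCG the median was 0.215 at day 3 (8 members) and -0.52 at day 10 (6), and without it 0.08 (52) and -0.05 (48). No test was run on these medians.

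No other subunit of complex IV was called. Cox5a, a matrix-side subunit, had 0.51 and 1.0 at day 3 and -0.18 and 0.08 at day 10. Cox4i1, the ubiquitous form of subunit 4, had 0.12 and -0.48 at day 3 and -0.59 and -0.76 at day 10. Its partner Cox4i2, known from lung and from cells short of oxygen, had 0.32 and 0.17 at day 3 and -0.72 and -0.43 at day 10. Cox4i2 was thus positive on both day 3 arrays and negative on both day 10 arrays, and Cox4i1 was negative on both day 10 arrays only.

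The isoforms of heart and skeletal muscle differed among themselves, and none was called. Cox6a2, the muscle form of subunit 6a, had 0.02 and 0.21 at day 3 and -0.15 and -1.17 at day 10. The ubiquitous Cox6a1 had 0.32 and 0.38 at day 3 and 0.05 and -0.73 at day 10. Both were positive on the day 3 arrays and had day 10 means below 0, at -0.66 ± 0.72 for Cox6a2 and -0.34 ± 0.55 for Cox6a1. Cox7a1, the muscle partner of Cox7a2, was negative on all 4 arrays, with -0.13 and -0.29 at day 3 and -0.34 and -0.79 at day 10. Cox8b, a muscle form of subunit 8, had 0.63 and -0.63 at day 3 and 0.88 and 0.75 at day 10, beyond 1.5-fold on both day 10 arrays, and its brightness percentile was 2.44. Cox8a, the ubiquitous form, had 0.11 and -0.28 at day 3 and 0.47 and 0.44 at day 10. Cox8a and Cox8b were therefore the pair with both day 10 values positive. The testis form Cox8c was measured at day 3 alone, with 0.37 and -0.09.

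Muscle markers were read beside these isoforms. Of 10 measured cardiac markers, 1 (Tnnc1, the cardiac and slow muscle troponin C) was called at day 3, on the negative side, and none at day 10, and the medians were -0.18 and -0.27. Their day 10 means ran from -1.01 for Myl7 to 0.44 for Myl2. On both day 10 arrays 7 of the 10 were negative and 2 positive, where 30.8% and 30.0% of all genes were. None of 5 measured skeletal muscle markers and neither of 2 measured brown fat markers was called on either day. Of all genes, 1.77% were called positive and 1.03% negative at day 3, and 2.15% and 1.39% at day 10. In RNA of whole embryoid bodies, a different number of cells of a type and a different level in each cell cannot be told apart. The part of these markers in the isoform values was not tested.

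Cox7a2l had the highest complex IV mean at day 10, with 0.59 and 1.38, or 0.98 ± 0.56. Its spots read 0.58 and 0.60 on array 1 and 1.56 and 1.20 on array 2, all on the positive side. At day 3 it had -0.14 and 0.49. Cox7c, a small membrane subunit, had -0.83 and -0.40 at day 3 and 0.16 and -0.01 at day 10. Cox6c had 0.18 and 0.60 at day 3 and a single value of -0.47 at day 10, and Cox5b had 0.08 and -0.69 at day 3 and a single value of 0.82.

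Complex V, the ATP synthase, had its called member in the catalytic head. Atp5a1, the alpha subunit, had -1.23 and -1.32 at day 3, or -1.28 ± 0.06, and each of its 4 spot readings lay between -1.39 and -1.21. Its catalytic partner Atp5b, the beta subunit, had 0.05 and 0.34 at day 3, or 0.19 ± 0.20. The day 3 values of these partners, which pair in equal number in the enzyme, did not overlap. At day 10 Atp5a1 had 0.12 and -1.38, the first from spots at 0.89 and -0.64, and Atp5b had 0.21 and -0.57. Atp5a1 is on chromosome 18 from 77773768 to 77782869.

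The stalk and small head subunits of complex V were not called on either day. The gamma subunit gene Atp5c1 was negative on all 4 arrays, with -0.43 and -0.25 at day 3 and -0.84 and -0.64 at day 10. For Atp5d, the delta subunit, the values were 0.40 and 0.35 at day 3 and -0.05 and -0.03 at day 10. The second day 10 value of Atp5d came from spots at -0.81 and 0.74. Atp5e, the epsilon subunit, had -0.01 and -0.03 at day 3 and -0.58 and -1.77 at day 10, the lowest complex V mean of that day at -1.17 ± 0.84. Atp5e thus passed 2-fold on 1 of the day 10 arrays.

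In the membrane and peripheral stalk parts, Atp5j, coupling factor 6, had 0.48 and 1.40 at day 3 and -0.82 and -0.50 at day 10. By array values its days did not overlap, and its mean difference between days was -1.59 ± 0.69, with pairs from -0.97 to -2.22. Its spots did overlap, at 0.94 and 0.01 on the first day 3 array and -1.38 and 0.38 on the second day 10 array. The first day 10 array had a single Atp5j spot. Atp5j2, subunit f, had 0.09 and 0.43 at day 3 and -0.39 on both day 10 arrays. Atp5o, which joins the stalk to the head, had 0.28 and 0.52 at day 3 and -0.87 and 0.05 at day 10. Atp5g2, 1 of the genes for the c ring, had -0.53 and 0.30 at day 3 and 0.74 and -0.52 at day 10, with both days on both sides of 0. Atp5l, subunit g, had the highest mean at day 3, 1.57 ± 2.30, from arrays at -0.06 and 3.20. The second value came from spots at 5.55 and 0.84, so the mean rests on a single spot. Atp5md, with 4 spots, had array values that were all negative, from -0.24 to -0.72, but its spots disagreed. On the second day 3 array they read -0.82, -0.60, 0.22 and 0.25. The day 10 arrays each had a positive Atp5md spot, at 0.24 and 0.39. Atp5pb, Atp5h and Atp5mpl had day 10 means between -0.26 and 0.18.

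Complex I, NADH dehydrogenase, had no called member at day 3 and 1 at day 10. Ndufa13, also known as GRIM-19, is an accessory subunit that has been tied to cell death as well. Its day 10 arrays read -1.49 and -1.10, or -1.29 ± 0.28, and its spots -1.77 and -1.21 on array 1 and -0.999 and -1.19 on array 2, the third reading just inside the limit. It was bright, at percentile 94.9. On the single day 3 array with a value it had -1.25. Each of the 3 arrays that measured Ndufa13 was thus beyond 2-fold on the negative side. The gene lies on chromosome 8 from 69894163 to 69902558.

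The core subunits of complex I carry the flavin and iron-sulfur clusters, and none was called. Ndufv1, which binds the flavin, had -0.27 and -0.26 at day 3 and -0.44 and -0.45 at day 10. These are among the closest technical pairs of all members, with an SD of 0.01 on both days. Ndufs7, an iron-sulfur subunit, had -0.36 and -0.25 at day 3 and larger values of -1.20 and -0.64 at day 10, beyond 1.5-fold on both arrays. Both genes were negative on all 4 arrays. Ndufv2 had 0.61 and 0.09 at day 3 and 0.36 and 0.32 at day 10, positive on all arrays. Its spots disagreed, at 0.36 and -0.18 on the second day 3 array and -0.40 and 1.11 on the first day 10 array. Ndufs3 had 0.01 and 0.60 and then -0.11 and 0.57. Ndufs1 had a single day 3 value of -0.75 and day 10 values of 0.53 and -0.24. Ndufs4, an accessory subunit whose loss causes Leigh syndrome, had -0.12 and -1.25 at day 3 and 0.88 and 0.31 at day 10. Its second day 3 value came from spots at 0.50 and -2.99.

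Among accessory subunits of the membrane arm, Ndufb11 came nearest to a call at day 3 with -0.89 and -1.21, a mean of -1.05 ± 0.23. Its day 10 values were -0.24 and 0.06. Ndufc1, a small accessory subunit, had 1.23 and 0.46 at day 3 and -0.82 and -2.18 at day 10. Subtracting each day 3 array from each day 10 array gave -2.06, -1.29, -3.41 and -2.64, with a mean of -2.35 ± 1.10, and it was the single member called between the days. Its day 3 spots ran from 0.25 to 1.86 and its day 10 spots from -0.28 to -2.18, with 1 spot giving no value on the second day 10 array. Ndufc1 is on chromosome 3 from 51405479 to 51408955.

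Several complex I values rest on a single spot. Ndufa1 had 3.04 and -0.45 at day 3, and its spots were 0.56 and 5.52 on array 1 and 0.67 and -1.57 on array 2. Ndufb5 had 2.10 and 0.50 at day 3, the first from spots at 3.48 and 0.72. Ndufb8 was beyond 2-fold with opposite signs on the day 3 arrays, at -1.01 and 1.44, the 1 member of 75 to do so, where 0.744% of all genes did, and 0 of 67 members did at day 10, against 1.48%. Ndufa6 was positive on all 4 arrays, with 0.73 and 0.81 at day 3 and 0.88 and 0.28 at day 10. It too had 1 spot on each of the first 3 arrays, and its last value averages spots at -0.72 and 1.29. Ndufa5, at brightness percentile 96.8, was negative on all 4, with -0.08 and -0.32 at day 3 and -0.53 and -0.77 at day 10.

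Over complex I, 14 of 33 measured members were positive on both day 3 arrays and 8 negative, beside 32.9% and 31.8% of all genes, with means from -1.05 to 1.30. At day 10, 9 of 30 were positive and 11 negative on both arrays, beside 30.0% and 30.8%, with means from -1.50 for Ndufc1 to 1.71. The 6 Ndufaf assembly factors had a median of -0.04 at day 3, and the 5 measured at day 10 a median of -0.54. Ndufaf3 had 1.16 and 0.88 at day 3, or 1.02 ± 0.20, just short of a call. Its day 10 mean, the highest of all members at 1.71 ± 2.36, came from 3.38 and 0.04, where 1 spot of array 1 read 5.91. Ndufaf6 was negative on all 4 arrays, with -0.49 and -0.64 at day 3 and -0.63 and -0.68 at day 10.

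**Figure D3:**
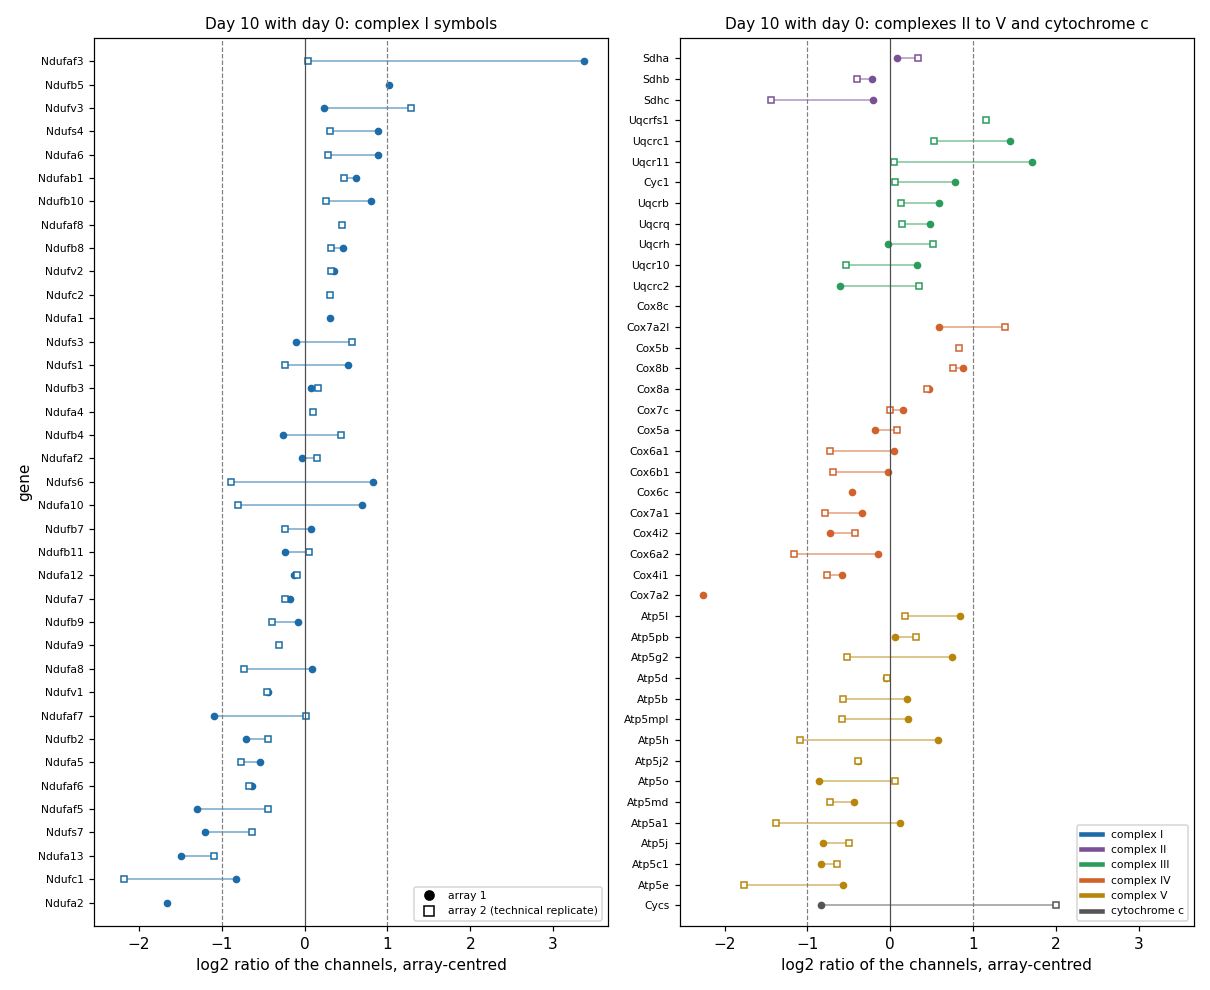
Log2 ratio of each member on the day 10 arrays (filled circle, array 1; open square, array 2), laid out as for day 3, with dashed lines at 2-fold. Ndufa13 lies beyond the line on the negative side on both arrays, and the long bars of Ndufaf3 and Cycs show arrays that differ.

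Complex III, the cytochrome bc1 complex, leaned to the positive side at day 10 without any call. Its day 3 median of 2-array means, 0.08, was below those of complexes I (0.16), IV (0.11) and V (0.10) and above that of II (-0.25). On the separate day 3 arrays, however, its medians were 0.21 and 0.39, above those of each other complex on the same array. At day 3, 4 of 9 members were positive on both arrays and 0 negative on both, where 32.9% and 31.8% of all genes were. At day 10, 5 of 8 measured members were positive on both arrays and 0 negative on both, where 30.0% and 30.8% of all genes were. Of those positive on both, Uqcr11, Uqcrc1 and Uqcrq had a single spot each on the first array. The core protein gene Uqcrc1 had 1.45 and 0.53, or 0.99 ± 0.65, at day 10 and -0.52 and 0.44 at day 3. Uqcrc2, the other core protein gene, had 0.60 and 0.79 at day 3, or 0.69 ± 0.14, and -0.60 and 0.35 at day 10. By array values these core partners thus stood in opposite order on the 2 days, but their spots overlapped. On the second day 3 array the spots were 1.12 and -0.24 for Uqcrc1 and 0.86 and 0.73 for Uqcrc2. On the second day 10 array they were 0.06 and 0.99 for Uqcrc1 and 1.02 and -0.32 for Uqcrc2. Cyc1, cytochrome c1, had 0.21 and -0.06 at day 3 and 0.78 and 0.06 at day 10. Uqcrb was positive on all arrays, with 0.39 and 0.05 at day 3 and 0.59 and 0.13 at day 10. Uqcrh, the hinge protein gene, had 0.72 and 0.39 at day 3, and Uqcrfs1, the Rieske iron-sulfur protein gene, 0.24 and -0.52. Uqcr11, a small subunit, had -1.40 and 0.12 at day 3 and 1.71 and 0.04 at day 10. Its spots on the first day 3 array disagreed, at -3.80 and 0.996, and the ratio of the first reduces to the whole numbers 4 and 57.

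Complex II, succinate dehydrogenase, was measured for 3 of its 4 subunits, since Sdhd was not on a named spot. Sdha, the flavoprotein, had -0.39 and -0.12 at day 3 and 0.08 and 0.33 at day 10. Its first day 10 value came from spots at 0.31 and -0.15. Sdhb, the iron-sulfur subunit, was negative on all arrays, with -0.07 and -0.22 at day 3 and -0.22 and -0.40 at day 10. Sdhc, a membrane anchor, had 0.16 and -1.10 at day 3 and -0.21 and -1.44 at day 10. Its array means hide spots of opposite sign, such as 1.17 and -0.85 on the first array. Cycs, the mobile carrier, had 0.72 and -0.12 at day 3 and -0.83 and 1.998 at day 10, so its day 10 mean of 0.58 ± 2.002 has no settled side.

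The median of each complex lay inside 2-fold on both days. At day 3 the medians were 0.16 for complex I, -0.25 for complex II, 0.08 for complex III, 0.11 for complex IV and 0.10 for complex V, and 0.01 over all genes. At day 10 they were -0.07, -0.31, 0.34, -0.34 and -0.32 in the same order, and -0.01 over all genes. Complex III was at 0.53 and 0.14 on the separate day 10 arrays. Complex V was at 0.00 and -0.55, so the second array carries its shift. Complex IV was at -0.02 and -0.43 over the 11 members measured on both arrays, but at -0.15 and -0.22 over all members each array measured. In complex V, 11 of 14 members had a day 10 mean below 0, beside 6698 of all 13199 measured genes. In that complex 6 were negative on both day 10 arrays, where 30.8% of all genes were. Over all members the median was 0.11 at day 3 and -0.09 at day 10. On both day 3 arrays 30 of 75 members were positive and 18 negative, against 32.9% and 31.8% of all genes. On both day 10 arrays 20 of 67 were positive and 24 negative, against 30.0% and 30.8% of all genes.

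**Figure D4:**
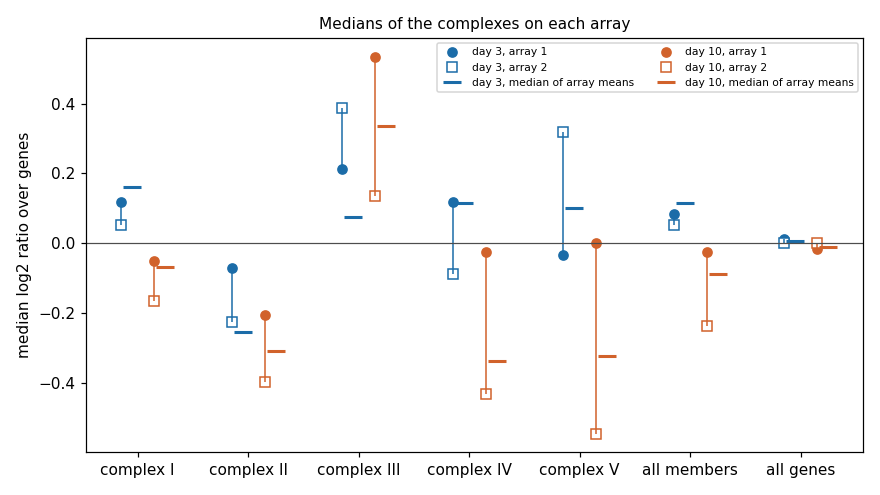
Median log2 ratio over the measured genes of each complex, of all members and of all genes on each array (circles, array 1; squares, array 2; day 3 blue, day 10 orange), with a dash for the median of the 2-array means. The day 10 medians of complexes IV and V lie near 0 on array 1 and at -0.43 and -0.55 on array 2.

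Set through the day 0 RNA, day 10 minus day 3 had a median of -0.17 over 64 members and of -0.01 over all genes. The label of channel 2 is the same day 0 RNA on all arrays, but a single preparation is not stated. In 21 of 64 members all 4 array pairs were negative and in 11 all were positive, where 22.7% and 20.7% of all genes were. By complex the medians were -0.09 for I, -0.16 for II, 0.20 for III, -0.35 for IV and -0.39 for V. Complex V ranged from 0.09 to -0.56 over the 4 array pairs. In no member of complex V were all pairs positive, and in 6 of 14 all were negative. Cox6b1 and Ndufb11 lay on the positive side of this difference, at 1.01 ± 0.48 and 0.96 ± 0.31, and Atp5j, Ndufaf5 and Cox4i2 on the negative side, at -1.59 ± 0.69, -1.27 ± 0.68 and -0.82 ± 0.23.

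Other genes of the pathway were read from lists. Of 24 measured assembly factors beyond the Ndufaf genes, none was called at day 3 (median -0.15), beside 1.77% positive and 1.03% negative of all genes. At day 10, 2 of 21, Surf1 and Coa3, were called on the positive side (median -0.09), where 2.15% of all genes were. Surf1, which helps to build complex IV, had 2.67 and 1.75 at day 10 but a brightness percentile of 1.26. Coa3, another complex IV factor, had 1.05 and 1.63.

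Citric acid cycle and pyruvate dehydrogenase genes had 2 of 15 called on the negative side at day 3, where 1.03% of all genes were, and 0 of 13 called at day 10, with medians of -0.29 and -0.19. Suclg2, a subunit of succinyl-CoA ligase, had -1.93 and -1.56 at day 3, and Idh3b, a subunit of NAD-dependent isocitrate dehydrogenase, -1.05 and -1.22. Among regulators, Nrf1, the gene of the factor whose motif is given above, was called at day 3 with 1.38 and 1.33, at a brightness percentile of 1.13. Tfb2m, a mitochondrial transcription factor, was called on the other side with -1.001 and -1.02. The other 10 of 12 regulators, Tfam and Ppargc1a among them, were not called at day 3, and 0 of 11 were called at day 10. Of all genes, 1.77% were called positive and 1.03% negative at day 3, and 2.15% and 1.39% at day 10.

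Carriers and channels had no call on either day, beside the same shares of all genes, with medians of -0.46 and -0.30 over 11 genes. The ADP/ATP carrier gene Slc25a5 had -1.05 and -0.83 at day 3 and -0.92 and -0.89 at day 10, and the phosphate carrier gene Slc25a3 -0.68 and -0.97 and then -0.55 and -0.76. Both were negative on all 4 arrays and bright, at percentiles 90.7 and 89.7. The voltage-dependent channels Vdac1 and Vdac3 had 0.54 ± 0.04 and 0.46 ± 0.05 at day 3, and Vdac2 had -0.46 ± 0.82, from -1.04 and 0.12.

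Gene groups nearest in kind are given for comparison. Of 67 measured mitochondrial ribosomal protein genes, 5 were called at day 3 (3 positive, 2 negative) and 2 of 65 at day 10 (1 of each sign), beside 1.77% and 1.03%, and 2.15% and 1.39%, of all genes, with medians of 0.05 and -0.07. Vacuolar ATPase genes had 0 of 17 and 0 of 15 called, with medians of -0.15 and 0.13. Cytosolic ribosomal protein genes had 29 of 65 called on the positive side and 0 on the negative side at day 3, with a median of 0.79, and 0 of 65 called at day 10, with a median of -0.30 and 33 negative on both arrays. No test of these differences was possible with 1 RNA pair a day.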

How the data were processed

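The deposited table holds 1 log2 ratio of the 2 channels per spot and array, with no header on scanner, background, dyes or centring; the sources used here do not give those steps. Base 2 was settled from the values: between 59.3% and 61.9% of an array's log2 values, as deposited, were ratios of whole numbers up to 10000 to 9 decimals, and 1.60% or less once values were randomly shifted. Spots were named through the platform annotation: 32544 had 1 symbol, 588 several and 12996 none. Entrez IDs in the GRCm38.p6 gene table changed 0 symbols. The 480 spots of 5 control accessions were left out. Each array was centred on its median. No significance test was run.

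The members, gene lists and rules were chosen with earlier results of these data known. Members named are those called, the highest and lowest of each complex at each day, fixed isoforms and subunits (Cox6b2, Cox7b, Cox7b2, Sdhd, Atp5g1 and Atp5g3 were not on named spots), and further subunits chosen after their values were seen. Members with a pseudogene in the gene table (Atp5c1, Atp5l, Atp5pb, Cox5b, Cox7c, Cycs, Ndufa12, Ndufab1 and Uqcrh) may share signal with it. Brightness is taken from the smallest pair of whole numbers giving the ratio (log2 of their geometric mean), a lower bound averaged over spots and arrays; values that need larger numbers count as bright. Precision is limited by the number of arrays. The steps were tested on simulated data. Python 3.11.15, numpy 2.4.6, pandas 2.3.3 and matplotlib 3.10.9 were used.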

Additional observations from a re-analysis of the deposited data

Results flagged for a closer look

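Values on all 4 arrays were held by 64 members. In 10 of these, both day 3 arrays lay on one side of 0 and both day 10 arrays on the other. Another 11 were negative on all 4 arrays and 5 positive on all 4. The share of all genes that changed side was not counted, so the 10 do not set these members apart. The difference between the days was not tested, since the arrays of a day are technical replicates. The 2 that were negative at day 3 and positive at day 10 were Sdha, with means of -0.25 and 0.20, and Ndufs4, with -0.68 and 0.59. The 8 that were positive at day 3 and negative at day 10 included Ndufc1 (0.85 and -1.50), Ndufaf5 (0.40 and -0.87) and Ndufa7 (0.20 and -0.21) of complex I. In complex IV they were Cox4i2 (0.24 and -0.58) and Cox6a2 (0.11 and -0.66). In complex V they were Atp5d (0.37 and -0.043), Atp5j (0.94 and -0.66) and Atp5j2 (0.26 and -0.39). Array values of Sdha, Ndufs4, Ndufa7, Cox6a2, Atp5d, Atp5j and Atp5j2 average spots of opposite sign on at least 1 array. On the second day 3 array the Ndufs4 spots were 0.50 and -2.99, and on the first a single spot read -0.12. Ndufc1, Ndufaf5 and Cox4i2 had spots on 1 side throughout each day. The median of all members was 0.11 at day 3 and -0.089 at day 10, and the median of complex I was 0.16 and -0.068.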

How the results depend on the processing

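With the spot of smallest array difference, members beyond 2-fold numbered 2 on the negative side at day 10, 1 positive and 2 negative between the days, and the medians of all members were 0.17 at day 3 and -0.26 between the days. With genes valued on all 4 arrays, Cox7a2 and Ndufa13 drop out by construction, leaving 0 positive at day 3 and 0 negative at day 10, and the day 3 median was 0.028. Without centring the day 3 median was 0.085. With the brightness trend removed, 2 members were negative between the days and that median was -0.11. At a limit of 1.5-fold, the positive counts were 4 at day 3, 2 at day 10 and 2 between the days, and the negative counts at day 10 and between the days were 6 and 4. At 4-fold all were 0. With the limit on the mean alone, there were 5 positive at day 3, 1 positive and 3 negative at day 10, and 5 and 5 between the days. Counting each spot reading, and leaving out the Ndufaf genes, were chosen after seeing the data. The first left 1 negative at day 3, 0 at day 10 and 0 between the days. The second changed no count or median beyond the array SD.

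On a single array, 6 members were positive at day 3 and 6 to 7 negative, and 4 positive and 6 to 7 negative at day 10. Between the days, leaving out 1 array gave 2 to 6 positive and 2 to 7 negative. The medians of all members ranged from 0.051 to 0.087 at day 3, from -0.035 to -0.025 at day 10 and from -0.19 to -0.080 between the days. Signs of complex medians turned for IV (-0.09 without replicate 1) and V (-0.03 without replicate 2) at day 3. For the difference they turned for II (0.27 without day 3 replicate 1, 0.26 without day 10 replicate 2) and III (-0.02 without day 10 replicate 1). The day 3 medians of complexes I and IV turned with genes valued on all 4 arrays, that of III between the days with the best spot, and that of I at day 10 with the trend removed. The cause was not tested. A common spread, and the median of the spots, moved no count or median of all members beyond these limits. No called member changed sign under any alternative run, but a call already needs every array or array pair beyond 2-fold on 1 side. A change of sign was thus hardly possible, and its absence is no sign of robustness. No paired analysis was possible because the labels give no replicate numbers and no test was run. Dim spots and the number of arrays both limit precision.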
